A study of Homo sapiens with 18 samples.

Results

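Sites listed under several genes were examined in 2 deposited lists of candidate m6A switches from HEK293T cells, a human embryonic kidney line. A site is a distinct U-tract, a run of uridines given by chromosome, strand, start and end in hg19. The shared sites are those whose entries carry at least 2 different gene symbols, with blank, NA and 0 symbols ignored. There were 315 of them among 15027 U-tracts over both lists, or 2.10%, and the other 14712 carried 1 symbol or none. The choice used symbols alone, so the number of shared sites describes the annotation and is not a result about binding.

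The 18 samples fall into 9 groups of 2. PARCLIP-MeRIP, which enriches RNA crosslinked to hnRNP C for m6A, has an IP and an Input group, both from wild type cells. hnRNP C PAR-CLIP, which maps protein contacts by crosslinking, covers METTL3 Knockdown, METTL14 Knockdown and wild type control cells, and RNA-seq covers HNRNPC Knockdown, METTL3 Knockdown, METTL14 Knockdown and wild type control cells. The labels do not say whether replicates came from separate cultures. The lists give positions and no value per sample, so depth is unknown, no group could be set against another, and the intervals below cover counting error only. Sites of a locus share their RNA and are not independent.

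hnRNP C is an abundant nuclear protein that binds uridine runs in unspliced RNA. The methyltransferase of METTL3 and METTL14 places N6-methyladenosine (m6A) at adenosines within the RRACH motif, where R is A or G and H is A, C or U. An m6A switch is a place where methylation opens a local RNA fold and so exposes a nearby U-tract to hnRNP C. A read-through gene, named A-B, is annotated where transcription runs past the end of gene A into its neighbour B on the same strand and splicing joins exons of both. In such a locus, and where a small RNA lies inside a host gene, 1 stretch of RNA belongs to several annotated genes.

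The shared site of MIR3658 and UCK2 shows what such a listing looks like at the level of bases. UCK2 encodes a uridine-cytidine kinase, and the microRNA gene MIR3658 lies inside it. The U-tract at chr1:165877205-165877209, plus strand, is in both lists and is marked exon. The RefSeq hairpin (GRCh38.p14, chr1:165907921-165907976, plus strand) is printed 5′ to 3′ with 3 stretches in capitals. These are an RRACH motif at bases 10 to 14, a U-tract of 10 nt at bases 38 to 47, and the shared U-tract of 5 nt at bases 49 to 53.
MIR3658 hairpin: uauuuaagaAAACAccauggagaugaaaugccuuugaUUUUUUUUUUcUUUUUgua

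Under MIR3658 the HCS list pairs this U-tract with the capitalised motif, at a listed distance of 39 nt. Under UCK2 the same U-tract is paired with another motif, 21 nt downstream and so beyond the 56 bases of the hairpin. It was the only U-tract of either list that had several motifs. The 10-nt U-tract, at chr1:165877194-165877203, is a switch site under UCK2 alone, paired with the same downstream motif at 27 nt. The listed transcript positions of the shared site, 49 under MIR3658 and 80475 under UCK2, differ by 80426 nt.

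Of the 315 shared sites, 263 were in the switch list only, 34 in the HCS list only and 18 in both. Over the whole lists, 8.24% of switch sites were also HCS sites and 40.1% of HCS sites were also switch sites. The abbreviation HCS is not spelled out in the labels. There were 311 sites with 2 symbols and 4 with 3. They made up 126 sets of genes with 230 symbols on 22 chromosomes, and 57 sets held 1 site while 17 held at least 5. Chromosome 6 held most, with 53 shared sites or 16.8% of them, against 4.84% of all sites. Its largest sets were NUDT3 with RPS10-NUDT3 (16 sites), MMS22L with MIR548H3 (10) and DDX39B with ATP6V1G2-DDX39B (10). RefSeq places MIR548H3 on another chromosome. The count on chromosome 6 thus rests largely on a few loci. For 194 of the 230 symbols (84.3%), every listed site was shared with another symbol. All 230 were chosen for carrying a shared site, so a symbol with 1 listed site counts here by rule. The same share over all listed symbols was not computed, and this one describes the choice only.

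Read-through loci held 185 of the 315 shared sites, or 58.7% (exact binomial 95% interval 53.1 to 64.2%), in 68 gene sets. Pairs of coding genes followed with 49 sites in 21 sets. The noncoding-partner class held 47 sites in 20 sets, and the small RNA class 34 sites in 17 sets. Each site was put in a single class, tried in the order read-through, small RNA, noncoding partner and coding genes. Read-through sites that also carry a noncoding or small RNA symbol are thus left out of the later classes. No shared site lay in a cluster of alternative first exons.

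**Figure D1:**
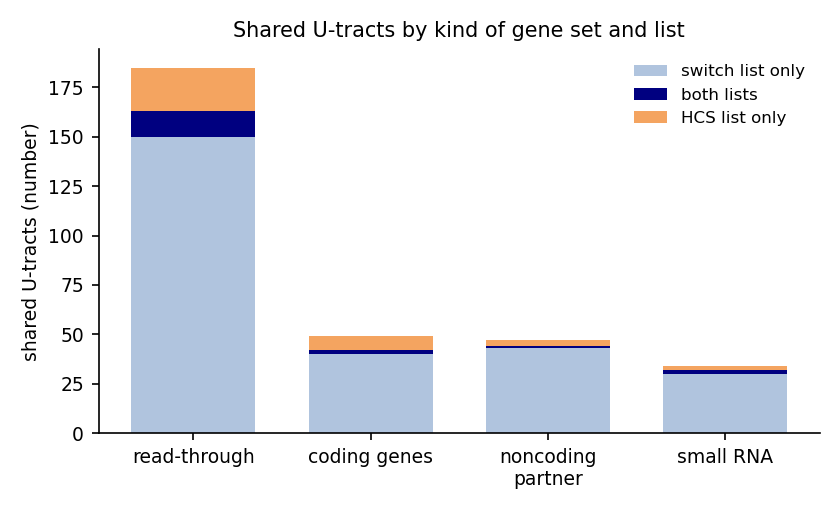
Number of shared U-tracts (vertical axis) in 4 kinds of gene set, stacked by list. Read-through sets hold 150 sites of the switch list only, 13 of both lists and 22 of the HCS list only. The other 3 kinds together hold 5 sites of both lists.

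The annotation holds many more read-through genes than the lists touch. Of 193 read-through genes in the RefSeq gene table, 60 (31.1%) had a listed site under their own symbol or an older one, 54 (28.0%) had a shared site and 24 (12.4%) had a shared HCS site. The same shares over all RefSeq genes were not computed, so these cannot be called high or low. Read-through symbols that shared a site with their gene A or B numbered 52 and carried 210 listed sites. PRH1-PRR4 and LINC02210-CRHR1 count among the 54 but not among these 52. Of the 210 sites, the upstream gene shared 103, the downstream gene 82, and 2 were shared with a further gene only, while 23 stood under the read-through symbol alone. Of the 52, 22 shared sites with the upstream gene only, 14 with the downstream gene only and 16 with both.

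Position in the unspliced RNA separated the partners. Of the 103 sites shared with an upstream gene, 94 had the same transcript position under both symbols in at least 1 pair of transcripts, and the other 9 differed by at most 2467 nt. None of the 82 sites shared with a downstream gene had the same position, and the differences ran from 4333 to 153600 nt with a median of 33445 nt. These offsets follow from where each transcript starts and are a property of the annotation. The 2 partners alone never held a site inside the stretch spanned by the read-through gene's own sites. That stretch lies inside the annotated read-through gene, so this too follows from the annotation.

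**Figure D2:**
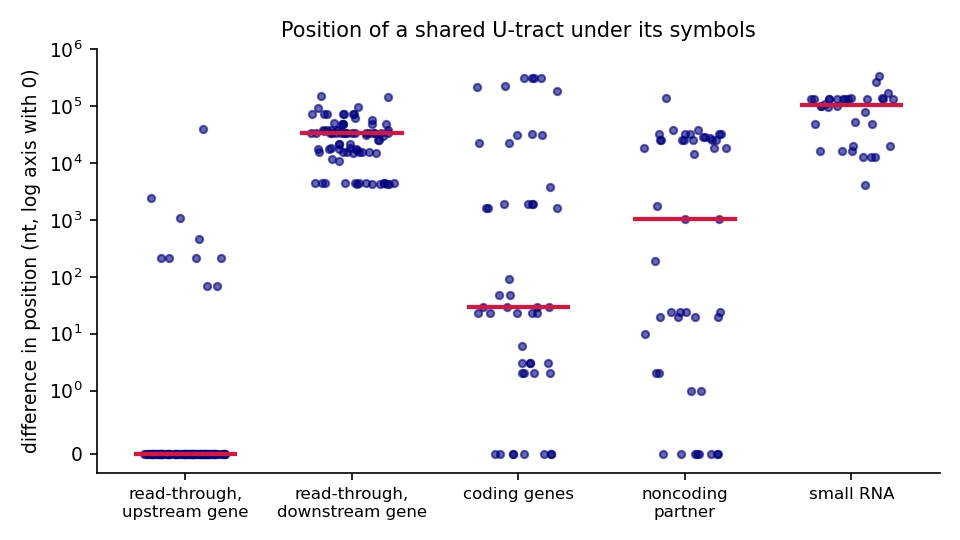
Difference between the transcript positions of a shared U-tract under its symbols, the smallest over transcripts (vertical axis, nt, logarithmic with 0), 1 point per site and a bar at the median, by kind of gene set. On sites with 3 symbols the widest difference is drawn, which gives 1 upstream-gene site a difference of 39556 nt. Most upstream-gene sites lie at 0, all 82 downstream-gene sites at 4333 nt or more, and the small RNA sites at 4092 to 336670 nt.

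RBM14 and RBM4 show the shared start in sequence. RBM14 encodes a nuclear coactivator, and RBM4 encodes a splicing regulator. In RefSeq (GRCh38.p14, chromosome 11, plus strand) the 50 bases before the annotated start are printed in lower case and the 50 after it in capitals. The windows are chr11:66616580-66616679 for RBM14-RBM4 and for RBM14, and chr11:66638653-66638752 for RBM4.
RBM14-RBM4: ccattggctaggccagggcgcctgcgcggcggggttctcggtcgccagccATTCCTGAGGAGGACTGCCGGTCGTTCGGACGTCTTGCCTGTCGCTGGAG
RBM14: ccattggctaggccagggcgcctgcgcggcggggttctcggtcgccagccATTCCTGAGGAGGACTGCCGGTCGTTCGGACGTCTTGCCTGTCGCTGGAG
RBM4: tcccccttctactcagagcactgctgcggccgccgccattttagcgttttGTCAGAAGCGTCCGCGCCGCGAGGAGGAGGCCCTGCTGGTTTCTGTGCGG

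The windows of RBM14-RBM4 and RBM14 are identical letter for letter, and that of RBM4 is different. Among the read-through and upstream pairs with the same listed position and both promoter windows in the table, 12 of 26 had identical windows. Of the pairs with a downstream gene, 0 of 21 did.

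RBM14-RBM4 had 10 listed sites, of which 6 were shared with RBM14, 3 with RBM4 and 1 with neither. The RBM14 site at chr11:66386571-66386575 was in both lists, intronic, with its motif 25 nt away. The other 5 RBM14 sites were in the switch list only. At RBM4, the U-tracts at chr11:66408596-66408601 and chr11:66410479-66410484 were in both lists, with distances of 14 and 12 nt and transcript positions of 2510 and 4393 in RBM4, against 24545 and 26428 in the read-through RNA. The site under the read-through symbol alone, chr11:66404877-66404884, was also in both lists and intronic. It lay at position 20826, before the start of RBM4 at 22035. RBM4 had 15 further sites under its own symbol alone, at and beyond position 66416331 of chromosome 11, past the last site of the read-through gene.

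RPS10-NUDT3 on the minus strand of chromosome 6 had the most sites of the read-through genes, 29. RPS10 is a protein of the small ribosomal subunit, and NUDT3 is a phosphatase for inositol pyrophosphates. NUDT3 shared 16 of the 29, the largest number of any gene set, and had no site of its own. HCS sites made up 2 of the 16, or 12.5% (1.55 to 38.3%), against 18.3% of all U-tracts of either list. They lay at chr6:34276237-34276254, with a U-tract of 18 nt, and chr6:34336313-34336317, with 5 nt. Both were intronic and in the HCS list alone. Their motifs lay 50 and 47 nt away, against a median of 16.5 nt for all shared HCS sites. RPS10 shared a single site, chr6:34389285-34389290, which was in both lists with its motif 3 nt away. The other 12 sites carried the read-through symbol alone. They lay at positions 9301 to 32610 of the read-through RNA, ahead of the start of NUDT3 at 33445, and all 12 were in the switch list only. Their U-tracts were 5 or 6 nt long apart from 1 of 26 nt at chr6:34384576-34384601.

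In 30 read-through genes the start of the downstream gene could be placed. The 22 sites in them under the read-through symbol alone lay before it, which follows from the annotation, since a site past that start would also carry the downstream gene's symbol. HSPE1-MOB4, which joins a mitochondrial co-chaperonin to a component of the striatin complex, had 2 at positions 7146 and 9005, before MOB4 at 15574, and 6 shared with MOB4. HNRNPUL2-BSCL2 and NME1-NME2 had 2 each, and HOXA10-HOXA9, which joins a pair of homeobox genes, had 1. ZNF559-ZNF177, from a pair of zinc finger genes, had 2, at chr19:9467536-9467540 and chr19:9469593-9469599, and both were intronic HCS sites outside the switch list. Over the 52 read-through symbols that shared a site with gene A or B, 23 sites stood under the read-through symbol alone. HCS sites made up 4 of those 23, or 17.4% (4.95 to 38.8%), near the 18.3% of all U-tracts. Other read-through symbols are left out of this count. Among them, PRH1-PRR4 had 23 further sites listed alone and 3 HCS sites, none of them shared.

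**Figure D3:**
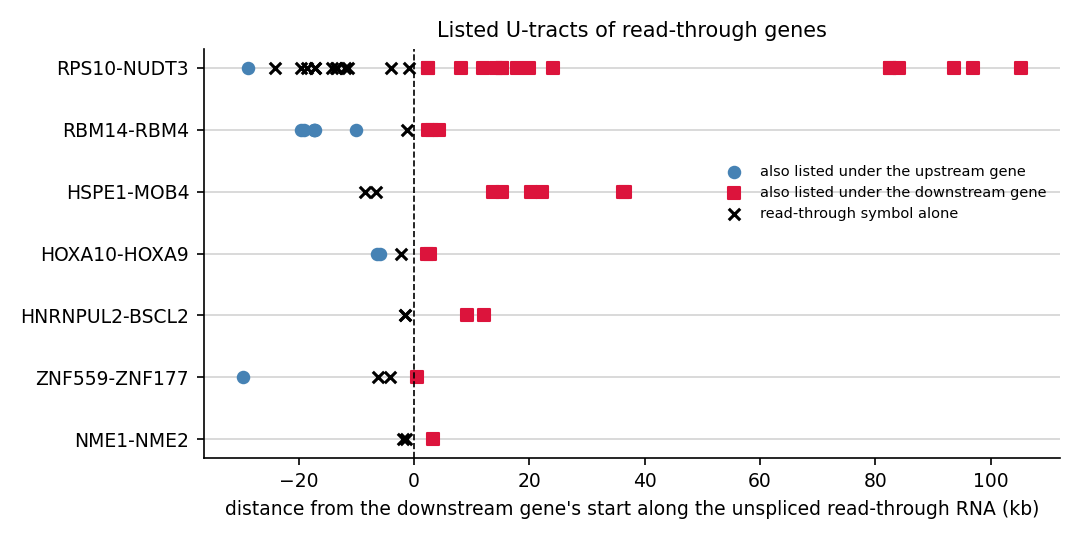
Listed U-tracts of 7 read-through genes against distance from the downstream gene's start along the unspliced RNA (horizontal axis, kb), marked by the other symbol they carry. Sites under the read-through symbol alone (crosses) and those of the upstream gene (circles) lie left of the dashed line at 0, and those of the downstream gene (squares) lie right of it.

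Among the leading read-through sets, 2 had no HCS site. HCS sites made up 18.3% of all U-tracts of either list. Sets of 6 to 10 sites are too small to show a lower or higher share, and no set was tested. DDX39B, a helicase in splicing and mRNA export, shared all its 10 sites with ATP6V1G2-DDX39B, each offset by 4373 nt. RTEL1, a helicase that protects telomeres, shared all its 8 with RTEL1-TNFRSF6B at the same positions. ZFP91, a zinc finger protein, shared 7 sites with ZFP91-CNTF, of which 2 were HCS sites. ANKHD1 and its read-through gene ANKHD1-EIF4EBP3 shared 6 with 1 HCS site, as did STX16, a Golgi syntaxin, with STX16-NPEPL1.

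In 3 read-through sets the shared HCS sites stood side by side. In MSH5 with MSH5-SAPCD1, where MSH5 is a meiotic MutS homologue, both HCS sites were U-tracts of 6 nt, chr6:31723440-31723445 and chr6:31723447-31723452. They were intronic, at listed motif distances of 11 and 4 nt. The HCS pair of ZFP91, chr11:58352954-58352958 and chr11:58352960-58352966, was likewise intronic, at 23 and 29 nt. SYS1, a Golgi protein, shared chr20:43998428-43998432 and chr20:43998434-43998440 with SYS1-DBNDD2, at 10 and 2 nt, and had no shared switch site. In each of these 3 pairs, 1 base separated the U-tracts. Both U-tracts of ZFP91 were listed with the same motif, and so were both of SYS1. The share of such neighbours among all HCS sites was not computed.

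Of the 52 shared HCS sites, 12 were marked exon and 40 intron. The HCS list gave the region under every symbol for 49 of them, of which 9 were exonic and 0 were exonic under 1 symbol and intronic under another. The other 3, in NOP56, ARPC4 and MRPS24 with their partners, stood in the HCS list under 1 symbol only and were exonic there. The exonic share was 23.1% (12.5 to 36.8%), against 16.9% among other HCS sites and 17.0% of all. Read-through loci held 7 of the 12. MEF2BNB, shared with MEF2BNB-MEF2B, held 2, at chr19:19292730-19292734 and chr19:19292750-19292754, with only the second in the switch list. ARPC4, a subunit of the actin-nucleating complex, had 1 with ARPC4-TTLL3 at 40 nt, and PPT2, a lysosomal thioesterase, had 1 with PPT2-EGFL8 at 22 nt. TRIM39 had 1 with TRIM39-RPP21 at 15 nt. The downstream genes MRPS24, a mitochondrial ribosomal protein, and C20orf24 held 1 each, at distances of 11 and 0 nt.

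ZBED6 and ZC3H11A are a nested pair on chromosome 1. ZBED6, a transcription factor derived from a DNA transposon, is encoded inside ZC3H11A, a zinc finger protein in mRNA export. They shared 4 sites, 1900 nt apart in transcript position, and ZC3H11A had 10 more of its own. The HCS sites chr1:203768602-203768606 and chr1:203768990-203768995 were exonic under both symbols, at 22 and 4 nt, and the first was also a switch site. MRPS6 and SLC5A3, a mitochondrial ribosomal protein and a myo-inositol transporter, overlap on chromosome 21 and shared 2 HCS sites. Both were intronic, at 0 and 7 nt, and 1 of them was also a switch site.

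Further coding pairs are close copies that lie apart in RefSeq. EIF3C and EIF3CL, which encode a subunit of a translation initiation factor, shared 6 sites, of which 4 were switch and 2 were HCS sites. A U-tract of 6 nt with its motif 39 nt away was listed at chr16:28392888-28392893 on the minus strand in the HCS list. A U-tract of the same length and distance was listed at chr16:28745058-28745063 on the plus strand in the switch list. In 1 transcript their positions were 22269 and 22275. GTF2H2C and GTF2H2D shared 5 switch sites. How reads that align to several places were treated is not given in the sources used here, so the copy that such a site belongs to is uncertain.

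Symbols of some shared sites belong to another chromosome in RefSeq. This held for 15 symbols at 38 sites. TMEM183A, on chromosome 1, shared all its 4 sites with TMEM183B. H3F3A, which encodes a replacement histone, shared all its 4 with the pseudogene H3F3AP4. The H3F3A set held 1 HCS site, exonic, at chr1:226259484-226259488 with its motif 2 nt away. Under H3F3AP4 its listed position was 9058, although the RefSeq gene is 1059 nt long.

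Among sets with a noncoding partner, the pseudogene ABCA11P and the zinc finger gene ZNF721 shared 7 switch sites, all that ZNF721 had, with positions 24962 nt apart, and ABCA11P had 3 more. PRKRIP1 shared all its 5 with LOC100630923, and the pseudogenes SUGT1P3 and TPTE2P5 shared 4. Of the 44 switch sites in the noncoding-partner class, 1 was an HCS site, or 2.27% (0.0575 to 12.0%). That interval holds the 8.24% of the whole switch list. A further 3 sites of the class were in the HCS list only. Read-through and small RNA sites with a noncoding symbol were classed apart and are not in this share. Some of them were in both lists, such as that of MIR3658 and UCK2.

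Small RNA symbols were carried by 15 genes, and most of these listings lay far outside the small RNA. On the listed chromosome in RefSeq were 3, MIR3658, SNORD56 and SCARNA10, and their sites fell within the RefSeq gene length. A further 11 lie on another chromosome there, and MIR5095 was not in the table. MIR548H3, with a RefSeq length of 118 nt, was listed at positions 137698 to 226359, and all its 10 sites were those of MMS22L, a protein of replication fork repair. MIR548F1, of 84 nt, was listed at 110877 to 162610 at 3 sites of TPR, a nuclear pore protein. The U6 gene RNU6-83, of 112 nt, was listed at 2148 to 50559, at 2 sites of ALG8, an enzyme of N-glycosylation, and 1 of NDUFC2.

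Mature microRNAs of 6 of the 10 microRNA symbols, from RefSeq (GRCh38.p14), are shown because symbols of the MIR548 family recur. The seed, bases 2 to 8, is in capitals, and the 7 seeds all differ. The letters of the miR-548n seed also occur at bases 4 to 10 of miR-548f-5p. The symbols MIR548H3, MIR548H4, MIR548O2 and MIR5095 are named only.
hsa-miR-548ac: cAAAAACCggcaauuacuuuug
hsa-miR-548f-5p: uGCAAAAGuaaucacaguuuuu
hsa-miR-548f-3p: aAAAACUGuaauuacuuuu
hsa-miR-548n: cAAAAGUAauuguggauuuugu
hsa-miR-3134: uGAUGGAUaaaagacuacauauu
hsa-miR-5694: cAGAUCAUgggacugucucag
hsa-miR-3658: uUUAAGAAaacaccauggagau

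Of the small RNAs on their own chromosome, SNORD56, a small nucleolar RNA inside NOP56, a core protein of box C/D particles, had 1 site, chr20:2637286-2637290. It was in both lists, exonic and with its motif 30 nt away, at position 18 of the small RNA and 4110 of NOP56. SCARNA10, a small Cajal body RNA inside NCAPD2, a condensin subunit, had 2 switch sites at positions 139 and 163 and no HCS site. Among the symbols on another chromosome, 0 of 24 switch sites of small RNAs were HCS sites, which allows a share of up to 12.5%. The whole switch list had 8.24%. These sets also held 2 HCS sites outside the switch list.

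All 18 shared sites that were in both lists belonged to gene sets that overlap in RefSeq, whose 213 switch sites gave a share of 8.45% (5.09 to 13.0%). Of the 34 switch sites in sets placed on different chromosomes, 0 were HCS sites. The exact 95% interval was 0 to 10.3%, and 3 counts of the total would be 8.82%. Of the 30 in sets that lie apart on 1 chromosome, 0 were (0 to 11.6%, with 3 counts at 10.0%). With the 4 in sets not in the table, 0 of 68 switch sites outside overlapping sets were HCS sites. There 3 counts would be 4.41%, and the exact 95% interval was 0 to 5.28%. The upper bound of that interval lies close to the lower bound for overlapping sets, and no test was run over sites, since sites of a locus are not independent. The share in the whole switch list was 8.24%. HCS sites were not absent from the sets without overlap. Sets on different chromosomes held 4 and sets apart on 1 chromosome held 4, all in the HCS list only. The split by overlap was added after the data were seen. Overlap was judged on GRCh38.p14, whereas the sites are listed in hg19. The sets without overlap mix small RNA symbols, close copies and other pairs.

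Taking all shared switch sites, 18 of 281 were also HCS sites, or 6.41% (3.84 to 9.94%), against 1084 of 13100 other switch sites, or 8.27% (7.81 to 8.76%). The share in the whole switch list was 8.24%. The interval of the shared sites holds the share of the others. From the other side, 18 of 52 shared HCS sites were in the switch list, or 34.6% (22.0 to 49.1%), against 40.2% of other HCS sites and 40.1% of all. Read-through loci, at 7.98% (4.31 to 13.3%), had the HCS share closest to the whole list among the 4 kinds of gene set. Sites shared with the downstream gene (8.11%, 3.03 to 16.8%) and with the upstream gene (7.87%, 3.22 to 15.5%) had similar shares with wide intervals.

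**Figure D4:**
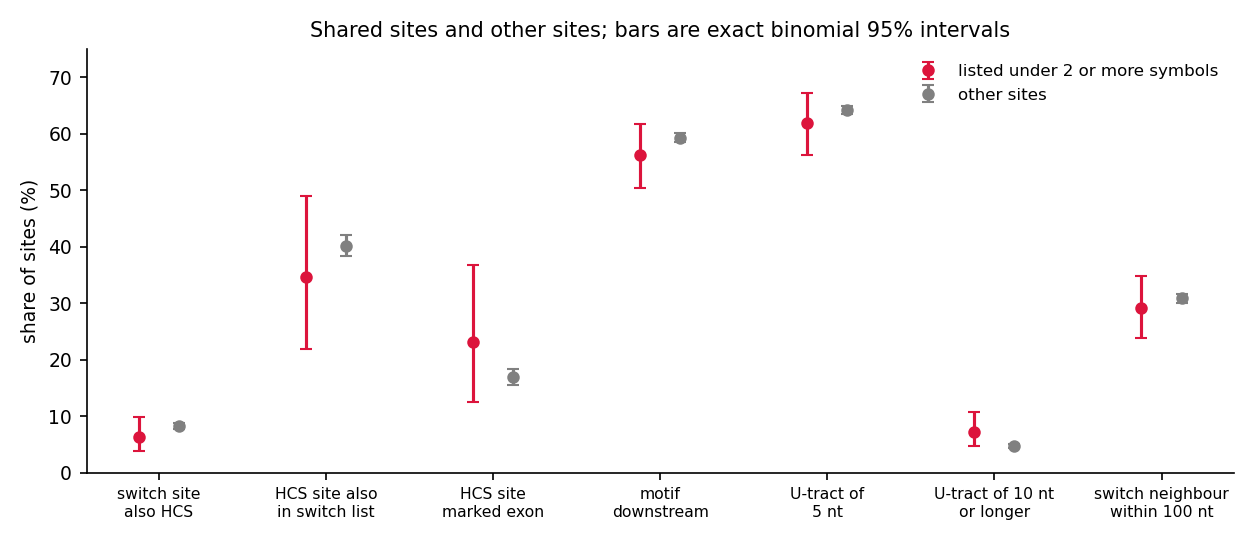
Share of sites (vertical axis, %) with 7 properties, for shared sites (left of each pair) and other sites (right), with exact binomial 95% intervals. The points lie farthest apart for the properties of HCS sites (34.6% and 40.2%, 23.1% and 16.9%), where 52 shared sites give the widest intervals.

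Shared sites resembled the others in form. The U-tract was exactly 5 nt long in 61.9% of shared sites (56.3 to 67.3%), against 64.3% of other sites. At 10 nt or more, the shares were 7.30% (23 sites, 4.68 to 10.8%) and 4.76%. The longest U-tract was 21 nt among shared sites and 56 nt among other sites. A downstream motif was listed for 56.2% of shared sites (50.5 to 61.7%), against 59.3%. Another switch site lay within 100 nt of 29.2% of shared switch sites (23.9 to 34.9%), against 30.9%.

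The median listed distance to the motif was 21 nt for shared sites (order-statistic 95% interval 18 to 23 nt) and 18 nt for other sites (18 to 19 nt). Within the switch list it was 21 nt for shared sites and 19 nt for other sites, and within the HCS list 16.5 nt (12 to 22 nt) and 13 nt (13 to 14 nt). The motif was at most 10 nt from the U-tract, edge to edge, in 32.1% of shared sites (26.9 to 37.5%), against 36.2%. Among shared sites the median was 14 nt for coding pairs (10 to 22 nt), 17.5 nt for small RNA sets (7 to 30 nt), 22 nt for read-through loci (18 to 25 nt) and 23 nt for noncoding partners (20 to 30 nt). Those intervals overlap, and no test was run over sites.

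**Figure D5:**
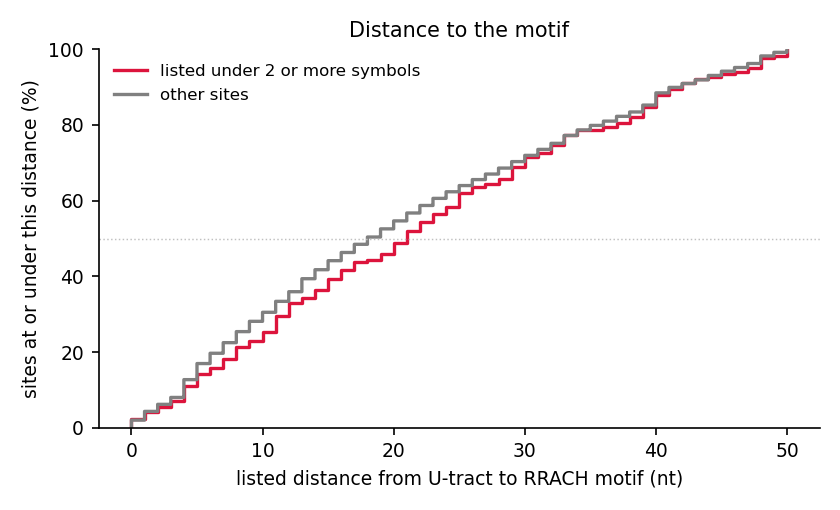
Cumulative share of sites (vertical axis, %) at or under a listed distance to the RRACH motif (horizontal axis, nt), for shared sites and other sites. The curve of shared sites runs below that of other sites in the short range and crosses 50% at 21 nt, against 18 nt.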

How the data were processed

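The deposited lists hold U-tract and RRACH motif positions in hg19, transcript positions, U-tract lengths and the distance between them, per the file headers, as other numbers with no counts or enrichments. Trimmomatic, Bowtie 1.0.0 and hg19 are named in the submitters' processing notes. How sites were called, their thresholds, any pooling of replicates and the counting base of the positions are not given in any source used here.

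Entries (17352 in the switch list, 2798 in the HCS list) were reduced to 13381 and 2748 distinct U-tracts. Copies on X and Y were counted apart. In all 20150 entries, length equalled end minus start plus 1, and the distance equalled the edge-to-edge gap for downstream motifs and included the 5 nt of the motif for upstream ones. Shares carry exact binomial (Clopper-Pearson) 95% intervals and medians order-statistic ones. No test was run. A share of 0 is given with the limit that 3 counts of the total would be. A transcript difference is the smallest over the transcripts of the symbols compared.

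Symbols were matched by transcript, then by name, to a RefSeq gene table (GRCh38.p14), which resolved 229 of 230. That table gave names, lengths, chromosomes and overlap only, since the build differs. The members and gene lists were chosen with earlier results of these data known. Matching by transcript before looking for 2 names of 1 gene, and leaving antisense, intronic and divergent transcripts such as SLIT2-IT1 out of the read-through class, were decided after the data were seen. Gene sets were named by rule: the 12 leading by shared sites, up to 4 in each class, those with 2 or more HCS sites and those with an exonic HCS site. Beyond it, loci with sites under a read-through symbol alone, copies, RNU6-83 and SCARNA10 were chosen after their values were seen. Code was tested on simulated data. Intervals came from scipy 1.17.1 and tables from pandas 2.3.3, under Python 3.11.15 with numpy 2.4.6; figures were drawn with matplotlib 3.10.9.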

Additional observations from a re-analysis of the deposited data

How the results depend on the processing

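No paired analysis was possible because the lists hold no values per sample, and for the same reason no replicate could be left out. Of 103 alternative values, 97 stayed within the interval of the reported value or, for the number of shared sites, within 1.5 times of it. Over those, the HCS share of shared switch sites ran from 4.24 to 8.45%, the exonic share from 21.7 to 29.4% and the median distance from 18 to 21 nt. The 97 include values that could not move, so their number does not measure robustness. Ignoring symbols in date form, asking for 2 symbols within 1 list and leaving out Y copies each kept the same 315 shared sites. The exonic share under every symbol and the distance to the farthest motif were also unchanged. Without read-through loci, 130 shared sites were counted. With 1 U-tract per motif, another switch site within 100 nt was found for 3.32% of shared switch sites, against 4.50% of others, and within 1000 nt, with all U-tracts, for 46.6%, against 44.2%. U-tracts of 8 nt or longer made up 11.4% of shared sites, against 9.54%. Of the alternatives added after seeing the data, gene sets that overlap in RefSeq put 77.0% of shared sites in read-through loci, and leaving out miRNA and RNU6 symbols put 65.0% there. The neighbour share could not be computed after merging close sites, nor the read-through share without read-through loci. Counting 2 names of 1 gene as 1 removed 54 sites, including those of RBM14 with RBM14-RBM4, since the table gives some gene names as synonyms of their read-through genes. Depth per sample is unknown, so what it limits could not be assessed.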
